A study of Mus musculus with 12 samples.

Results

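The change from day to night in the pineal gland of control mice was taken from 6 of the 12 arrays of the series, chosen by their titles as control glands at ZT6 or at ZT20. The 3 control ZT6 arrays, from glands taken 6 h after lights on, were compared with the 3 control ZT20 arrays, from glands taken in the dark phase. Control mice were wild type at Crx and of the 129sv strain, and the other 6 arrays came from Crx-/- mice, which lack the cone-rod homeobox gene Crx, labelled with the same strain, with 3 arrays at each time. Mice of both sexes and over 2 months of age lived in 12 h of light and 12 h of dark, were killed with CO2 and decapitated, and at ZT20 this was done under dim red light. From each sample, which the titles number as a separate biological replicate, 100 ng of RNA was amplified with a NuGEN Ovation kit and hybridized to an Affymetrix mouse 430_2 array. How many glands made up a sample is not given in the labels. All 6 control arrays carried both Xist, at 12.22 to 12.67, and the Y-linked Eif2s3y, at 11.55 to 11.83. These levels, like all below, are the log2 of the quantile normalized signal plus 3.4.

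The pineal gland turns the light cycle into a nightly pulse of melatonin. In rodents, sympathetic fibres release noradrenaline in the dark, the pinealocyte raises its cyclic AMP, and cyclic AMP drives transcription of Aanat, the enzyme that acetylates serotonin and whose activity rises most at night. Pinealocytes also share an origin with retinal photoreceptors and express many of their phototransduction genes, and they hold a molecular clock of the Per, Cry, Nr1d and Ror families.

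Replicate 3 of the control ZT20 arrays was unlike the rest of its group. Over the 12379 genes tested its correlation was 0.915 and 0.925 with the other control ZT20 arrays, which correlated at 0.988 with each other, but 0.970 to 0.989 with the 3 Crx-/- ZT20 arrays. Hoxc4, a homeobox gene of the body axis, read 11.16 on it, while replicates 1 and 2 read 2.25 and 4.86 and the Crx-/- arrays 10.54 to 11.03. Its ratios of 5' to 3' signal were the highest of the 12 arrays, at 0.691 for Gapdh and 0.337 for actin. The main counts of called genes are therefore given with all 3 control ZT20 arrays and again without this one. These comparisons are 3 against 3 and 2 against 3 arrays. Some changes of single genes are given from 1 fit only. Those of Crx, Fosl2, Cacnb2, Ppp2r2b, A330094K24Rik, Isl2, Rxrg and Neurod1, for example, are from all arrays. All 12 arrays, or the 11 left without it, shared 1 estimate of the spread in each limma fit. Of the 14 measured pinealocyte markers, Rcvrn was at background on every control array, and Tph1, Ddc, Crx, Otx2, Sag and Neurod1 were at 12.14 or above on all of them. Values of single genes are given in the order of replicates 1, 2 and 3, log2 changes are ZT20 minus ZT6, and ± stands for the standard error of the fit.

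With all arrays, 880 genes were higher at ZT20 and 1118 lower at an adjusted p under 0.05, which is 7.11% and 9.03% of the genes tested and 16.1% together. Without replicate 3, 1488 were higher and 1620 lower, or 12.0% and 13.1%, and 25.1% together. The calls of both fits coincided for 785 higher genes, 89.2% of those called with all arrays and 52.8% of those called without replicate 3. For lower genes 1018 were shared, or 91.1% and 62.8%. Opposite calls in the 2 limma fits were made for 0 genes. A change of at least 1 on the log2 scale was reached by 201 higher and 225 lower genes with all arrays, and by 318 and 243 without replicate 3. The median change over all genes was -0.02 and -0.03. In the 3 against 3 comparison the arrays of both times did not overlap for 36.7% of all genes, and in the 2 against 3 comparison for 58.2%.

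Both counts depended on single arrays. With all arrays the numbers higher and lower became 411 and 567 without control ZT6 replicate 1, 513 and 636 without replicate 2, and 465 and 556 without replicate 3 of that group. Starting from the fit without control ZT20 replicate 3, leaving only 1 array at ZT20 gave 785 and 805 without replicate 1, and 925 and 1038 without replicate 2. The split between directions depended on the scaling. On signals as deposited, whose overall level differed between arrays, the median gene changed by -0.28 with all arrays and by -0.48 without replicate 3, and higher genes made up 13.5% and 5.74% of the calls, against 44.0% and 47.9% after quantile normalization. After scaling to a 2% trimmed mean the shares were 36.6% and 37.7%. Changes below are thus relative to the distribution of all signals on an array. A gland with fewer cells of a type and one with less RNA per cell cannot be told apart in such bulk samples.

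**Figure D1:**
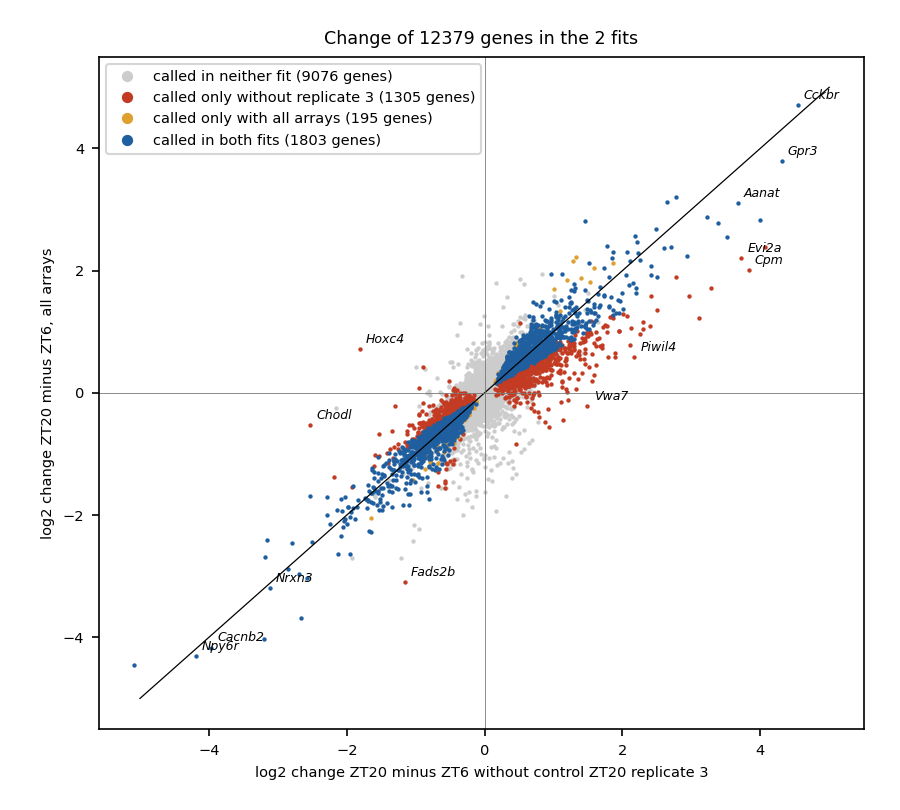
The log2 change from ZT6 to ZT20 of 12379 genes in control glands, without control ZT20 replicate 3 (horizontal axis) and with all arrays (vertical axis), coloured by which fit called them. The 1803 genes called in both fits lie near the diagonal; 1305 were called only without replicate 3 and 195 only with it.

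Among the enzymes of melatonin synthesis, Aanat rose and Gch1 fell in both fits. Aanat read 7.35, 7.35 and 7.88 at ZT6 and 11.34, 11.05 and 9.52 at ZT20. All 3 night arrays lay above all day arrays, and replicate 3 was the lowest of the 3. The rise was 3.11 ± 0.42 (8.66-fold, n = 3 and 3, limma adjusted p = 0.000713) and 3.67 ± 0.30 without replicate 3 (12.7-fold, adjusted p = 3.33e-06). Tph1, tryptophan hydroxylase, which makes the first step from tryptophan, read 13.48 to 13.52 by day, 13.65 and 13.66 on night replicates 1 and 2 and 13.09 on replicate 3. Its change was -0.03 ± 0.12 with all arrays and 0.16 ± 0.05 without replicate 3 (adjusted p = 0.0252), and that call was lost on leaving out night replicate 1 (adjusted p = 0.11) or 2 (adjusted p = 0.11) or day replicate 1 (adjusted p = 0.0738) or 3 (adjusted p = 0.075). The 2 probe sets of Ddc, the decarboxylase that forms serotonin, disagreed. The brighter one read 13.10 to 13.19 by day and 13.04 to 13.11 by night, and its change of -0.06 ± 0.05 was not called (adjusted p = 0.46). The other Ddc probe set read 11.39, 11.51 and 11.46 by day and 9.66, 9.33 and 9.39 by night, without overlap, and changed by -1.99 with all arrays and -1.96 without replicate 3 in the fit of all probe sets (adjusted p = 0.000547 and 0.000289).

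Gch1, GTP cyclohydrolase, the entry enzyme for the tetrahydrobiopterin cofactor of tryptophan hydroxylase, was lower at night. The brighter of its 2 probe sets read 12.28, 12.15 and 12.22 by day and 10.80, 10.53 and 12.16 by night. There replicate 3 sat within the day range while the other night arrays were far below it. The fall was 1.05 ± 0.31 with all arrays (adjusted p = 0.0368) and 1.55 ± 0.12 without replicate 3, from a change of -1.55 (2.93-fold lower, adjusted p = 2.91e-06). With all arrays this call was lost on leaving out any other control array, at adjusted p from 0.0789 to 0.113. The other Gch1 probe set read 11.95, 11.82 and 11.79 by day and 11.23, 11.26 and 11.70 by night. On it replicate 3 was below all day arrays. In the fit of all probe sets it changed less, by -0.46 with all arrays and -0.61 without replicate 3 (limma adjusted p = 0.0246 and 0.000344). Of the 11 tested genes of melatonin and tetrahydrobiopterin synthesis, 1 rose and 2 fell with all arrays, Aanat against Gch1 and Pcbd1, which regenerates the cofactor. Without replicate 3, 2 rose and 2 fell, the falls being Gch1 and Mat2b, a regulatory subunit of methionine adenosyltransferase, and the median of the list was -0.07. Pcbd1 lost its call without replicate 3 (change -0.23, adjusted p = 0.0796), and Mat2b had -0.24 with all arrays (adjusted p = 0.0666) and lost its call without any 1 other control array (adjusted p = 0.0704 to 0.199). Asmt was not analysed here. For this list and the next, the shares over all genes were 7.11% higher and 9.03% lower, and 12.0% and 13.1% without replicate 3. Of 5 tested genes for amine storage and breakdown, Slc18a2, which loads monoamines into vesicles, was the 1 called gene, though not on signals as deposited, and rose by 0.63 ± 0.17 and 0.73 ± 0.18 (adjusted p = 0.0289 and 0.00997). Its call with all arrays was lost without night replicate 1 (adjusted p = 0.0642) or 2 (adjusted p = 0.0916) or day replicate 1 (adjusted p = 0.0983) or 3 (adjusted p = 0.0966), and that without replicate 3 was lost without night replicate 2 (adjusted p = 0.0796). Crx itself rose by 0.46 ± 0.08 (adjusted p = 0.00358) from 12.66 to 12.75 by day to 13.18, 13.27 and 13.02 by night, while its other probe set, with the same change of 0.46, was not called with all arrays (adjusted p = 0.122).

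Of 15 tested genes known to rise at night in the rodent pineal gland, 7 rose and 1 fell with all arrays, and 10 rose and 2 fell without replicate 3. The median change of the list was 0.95 and 1.16, against -0.02 and -0.03 for all genes. Of all genes, 7.11% were higher and 9.03% lower with all arrays, and 12.0% and 13.1% without replicate 3. Dio2, the deiodinase that activates thyroid hormone, read 6.52, 7.12 and 7.33 by day and 9.59, 9.77 and 8.78 by night and rose by 2.39 ± 0.30 (adjusted p = 0.000444) and 2.70 ± 0.26 without replicate 3 (6.48-fold, adjusted p = 1.46e-05). The night arrays did not overlap the day arrays. Fosl2, a Fos-family transcription factor, rose evenly, from 10.39, 10.52 and 10.59 to 11.82, 11.72 and 11.49, by 1.18 ± 0.12 (adjusted p = 0.000135). Pde10a and Pde4b, which hydrolyse cyclic nucleotides, and Dusp1, a phosphatase of MAP kinases, also rose in both fits, Pde10a by 1.42 ± 0.31 and 1.80 ± 0.24 and Pde4b by 0.95 ± 0.13 and 1.07 ± 0.12.

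Crem, whose cyclic AMP-inducible product ICER represses cyclic AMP-driven transcription, gave calls that differed between its probe sets with all arrays. The brighter one read 9.80, 9.91 and 9.94 by day and 11.15, 11.11 and 9.45 by night. There replicate 3 was below all day arrays and the other night arrays above them. The change was 0.69 ± 0.34 with all arrays (adjusted p = 0.193) and 1.25 ± 0.14 without replicate 3 (adjusted p = 3.71e-05). The dimmer Crem probe set read 9.29, 9.23 and 9.05 by day and 10.53, 10.60 and 9.45 by night, with replicate 3 above all day arrays. In the fit of all probe sets it rose by 1.00 with all arrays and 1.37 without replicate 3 (adjusted p = 0.0188 and 1.85e-05). Irs2, an adaptor of the insulin receptor, and Nr4a1, an orphan nuclear receptor, had replicate 3 below or within the day range, at 6.48 and 6.76, and rose by 1.44 ± 0.28 (adjusted p = 0.00226) and 1.49 ± 0.28 (adjusted p = 0.00193) without replicate 3 and had adjusted p = 0.17 and 0.111 with it. Slc15a1, an oligopeptide transporter with a known night rise in rat pineal, went against its list and fell by 1.53 ± 0.24 without replicate 3, from a change of -1.53 (adjusted p = 0.000486). It read 7.46, 7.64 and 7.68 by day and 5.64, 6.49 and 8.64 by night, and replicate 3 was here the highest of the 6 arrays. Rorb, a nuclear receptor of the clock, was the other listed gene that fell, by 0.79 ± 0.17 (change -0.79, adjusted p = 0.00848). Camk1g and Atp7b were not called in either fit, and Sik1 changed by 0.69 in both without a call. Mat2a and Drd4 of the list were not among the genes tested.

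Among 24 tested cyclic AMP-induced and immediate early genes, 5 rose with all arrays and 9 rose and 1 fell without replicate 3. The median was 0.38 and 0.28, and the shares over all genes were 7.11% higher and 9.03% lower, and 12.0% and 13.1% without replicate 3. The median without replicate 3 was -0.12 on signals as deposited, with 6 genes higher and 4 lower. Nr4a3 rose in both fits, from 6.61, 7.22 and 8.25 to 9.77, 9.79 and 8.72, by 2.07 ± 0.41 and 2.42 ± 0.38 (adjusted p = 0.0056 and 0.000528). Its day arrays were spread over more than 1 log2 unit, yet the 3 night arrays were all higher. Dusp6, a phosphatase of ERK, and Jun rose in both fits by smaller amounts, Dusp6 by 0.50 ± 0.12 and Jun by 0.43 ± 0.11. Atf3 rose by 1.95 ± 0.23 without replicate 3 only (adjusted p = 6.03e-05, and 0.235 with it), from 7.46 to 7.80 by day to 9.59 and 9.48, with 6.77 on replicate 3. Fos, Egr1, Egr2 and Nr4a2 were not called in either limma fit, with changes of 0.13, 0.33, -0.42 and -0.17 with all arrays.

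Of 14 tested phosphodiesterases outside the photoreceptor family, 3 rose with all arrays and 7 without replicate 3, and 0 fell in either limma fit. The median change was 0.33 and 0.42, and the shares over all genes were 7.11% higher and 9.03% lower, and 12.0% and 13.1% without replicate 3. On signals as deposited 2 rose and 0 fell with all arrays, and 4 rose and 1 fell without replicate 3. Pde4d rose from 10.14, 9.99 and 9.97 to 11.23, 11.13 and 11.40, by 1.22 ± 0.12 (adjusted p = 0.000135), with replicate 3 the highest. Pde7b rose by 1.71 ± 0.26 without replicate 3 (adjusted p = 0.000467), where replicate 3, at 7.28, lay below the day arrays at 8.08 to 8.56 and the change with all arrays was 0.78 ± 0.58 (adjusted p = 0.388).

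Upstream of cyclic AMP, 4 of 27 tested genes of adrenergic, PACAP and cyclic AMP signalling rose and 4 fell with all arrays, and 5 and 5 without replicate 3. As deposited, none of these rises was called, with 0 higher and 4 lower by limma with all arrays and 0 and 7 without replicate 3. After quantile normalization the median of the list was 0.08 and 0.02. Over all genes 7.11% rose and 9.03% fell with all arrays, and 12.0% and 13.1% without replicate 3. Adcy1, the calcium-stimulated adenylyl cyclase, fell most, from 8.26, 8.74 and 8.80 by day to 6.73, 6.71 and 6.17 by night. The change was -2.06 ± 0.21 with all arrays and -1.88 ± 0.19 without replicate 3 (4.18-fold and 3.68-fold lower, adjusted p = 0.000135 and 2.26e-05). The regulatory subunits of protein kinase A Prkar2a and Prkar2b and its catalytic subunit Prkaca rose slightly, Prkar2a by 0.43 ± 0.08 (adjusted p = 0.00392). Its inhibitors Pkia and Pkig fell, Pkia by 0.75 ± 0.13 (change -0.75, adjusted p = 0.00314) and Pkig by 0.27 ± 0.05 (change -0.27, adjusted p = 0.00493). Creb1, the factor that protein kinase A phosphorylates, rose by 0.41 ± 0.10 (adjusted p = 0.0188), and Prkca fell by 0.52 ± 0.11 (change -0.52, adjusted p = 0.00966) on 1 of 3 probe sets, the others not being called (changes -0.35 and -0.39). In the limma fit of all probe sets, the other Prkar2a probe set missed the threshold with all arrays (change 0.48, adjusted p = 0.0894). It was called without replicate 3 (change 0.61, adjusted p = 0.0225). Adrb1 was not analysed here.

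In the core clock, 3 of 16 tested genes rose and 4 fell with all arrays, and 5 rose and 4 fell without replicate 3, with medians of 0.18 and 0.10. The shares over all genes were 7.11% higher and 9.03% lower, and 12.0% and 13.1% without replicate 3. The medians were -0.09 and -0.41 on signals as deposited, with 1 gene higher and 7 lower without replicate 3. Cry1, a repressor of the Clock and Arntl heterodimer, read 9.70, 9.89 and 9.99 by day and 11.34, 11.36 and 10.98 by night and rose by 1.37 ± 0.13 and 1.49 ± 0.12 (adjusted p = 0.000135 and 3.33e-06). Per1 rose by 1.01 ± 0.18 and 1.16 ± 0.17 (adjusted p = 0.00353 and 0.000356), and Per2 by 1.14 ± 0.19 and 0.95 ± 0.16 (adjusted p = 0.00197 and 0.000973). Night arrays lay above day arrays for all 3 genes, also on replicate 3. Per1 and Per2 were not called on signals as deposited, with adjusted p = 0.171 and 0.164 with all arrays and 0.114 and 0.269 without replicate 3. Nr1d1, the repressor REV-ERB alpha, fell from 9.95, 10.17 and 10.08 to 8.51, 7.93 and 8.18, by 1.86 ± 0.18 and 1.85 ± 0.20, from changes of -1.86 and -1.85 (3.63-fold and 3.60-fold lower, adjusted p = 0.000135 and 2.9e-05). Rora fell by 0.32 ± 0.09 and Nr1d2 by 0.20 ± 0.06, from changes of -0.32 and -0.20 (adjusted p = 0.0254 and 0.0427). The Nr1d2 call with all arrays was lost on leaving out any other control array, at adjusted p from 0.0763 to 0.141. Without replicate 3 it was lost without night replicate 2 (adjusted p = 0.127) or day replicate 1 (adjusted p = 0.0635) or 2 (adjusted p = 0.0525).

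Per3, Clock, Cry2 and Arntl were not called. Per3 read 11.09, 11.01 and 10.47 by day and 10.94, 10.54 and 11.82 by night, an overlap of both groups. Arntl, the partner of Clock, read 10.26, 10.37 and 10.40 by day and 10.09, 9.99 and 10.20 by night, without overlap, and its change of -0.25 ± 0.11 missed the threshold (adjusted p = 0.153, and 0.0765 without replicate 3). Of 11 clock output genes, Hlf, a PAR-domain factor, rose by 0.92 ± 0.14 and 0.82 ± 0.13 (adjusted p = 0.00128 and 0.000694), but was not called on signals as deposited (adjusted p = 0.205 and 0.34). The other Hlf probe set rose by 0.86 with all arrays (adjusted p = 0.0355) and missed the threshold without replicate 3 (adjusted p = 0.051). The brighter probe set of its relative Tef fell by 0.56 ± 0.10 without replicate 3 (change -0.56, adjusted p = 0.00123), where replicate 3, at 11.85, was above the day arrays at 11.47 to 11.64. On the other Tef probe set replicate 3, at 9.67, was below the day arrays at 9.88 to 10.13, and that probe set fell in both fits of all probe sets, by 0.88 and 1.17 (changes -0.88 and -1.17, adjusted p = 0.0188 and 0.000107). Dbp, the third PAR-domain factor, changed by -0.21 ± 0.16 and -0.09 ± 0.15, with day and night arrays overlapping.

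**Figure D2:**
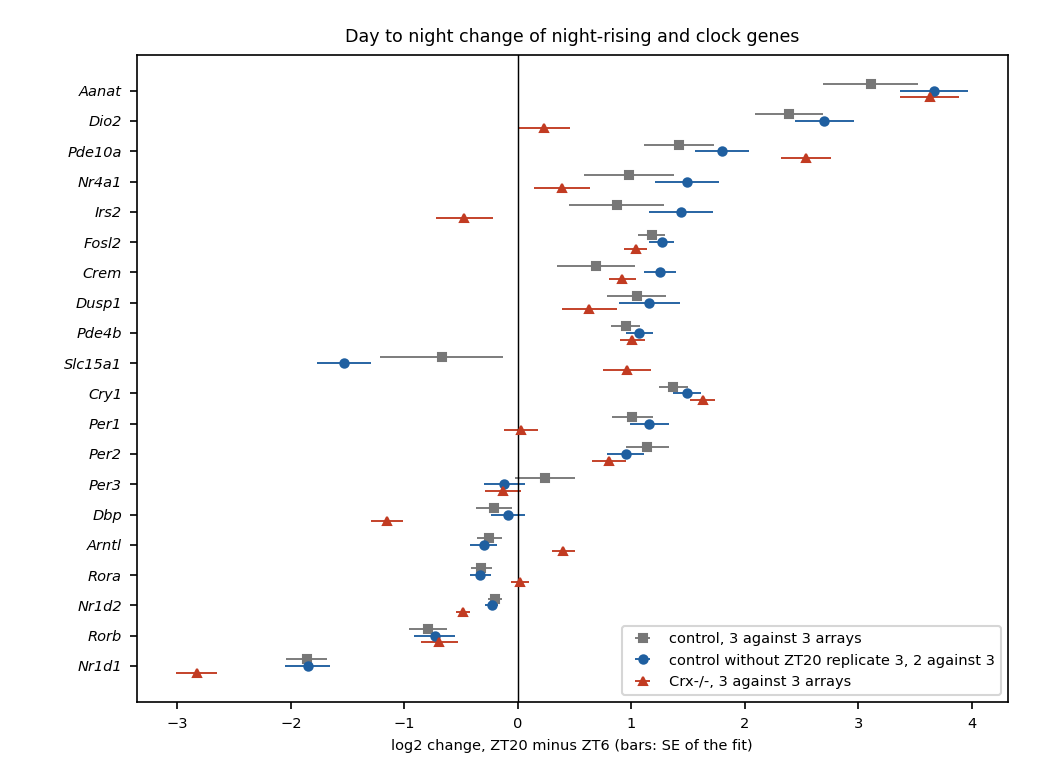
The log2 change from ZT6 to ZT20 of night-rising and clock genes in control glands with 3 against 3 arrays (squares), without control ZT20 replicate 3 (circles) and in Crx-/- glands (triangles), with bars for the standard error of the fit. Aanat, Dio2 and Cry1 lie to the right of 0 and Nr1d1 to the left in control glands, and Dio2 and Per1 of Crx-/- glands lie near 0, at 0.23 and 0.03.

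Promoters are shown for the called genes of these lists that hold a full cyclic AMP response element or a clock element near their start, so that the changes can be set beside the letters. The night-rising, cyclic AMP-induced, core clock and clock output lists held 27 genes called without replicate 3, of which 22 had a window in the RefSeq table. Windows run from 250 bases before to 50 bases after a start, on GRCm38.p6, and were searched on both strands for the response element TGACGTCA, the E-box CACGTG and the D-boxes TTATGTAA and TTACGTAA, with no overlap among the matches shown. Of the 22 genes, 8 had a match, and the 6 with the lowest p among them follow 5' to 3' on the gene's own strand, with the match in capitals. Of all 32851 windows in the table, 1.79% hold the response element, 7.15% the E-box, 0.938% the first D-box and 0.119% the second. These shares count windows for each motif singly, whereas the 8 genes had any of the motifs in any window. The measures are unlike, and whether matches were in excess was not tested.
Cry1, chr10:85185005-85185304, minus strand: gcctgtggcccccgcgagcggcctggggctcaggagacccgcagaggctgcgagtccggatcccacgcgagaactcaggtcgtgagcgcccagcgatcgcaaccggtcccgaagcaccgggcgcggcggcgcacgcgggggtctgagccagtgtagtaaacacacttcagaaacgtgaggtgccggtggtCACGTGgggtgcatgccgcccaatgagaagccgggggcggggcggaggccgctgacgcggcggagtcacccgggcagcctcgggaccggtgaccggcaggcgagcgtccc
Dio2, chr12:90738989-90739288, minus strand: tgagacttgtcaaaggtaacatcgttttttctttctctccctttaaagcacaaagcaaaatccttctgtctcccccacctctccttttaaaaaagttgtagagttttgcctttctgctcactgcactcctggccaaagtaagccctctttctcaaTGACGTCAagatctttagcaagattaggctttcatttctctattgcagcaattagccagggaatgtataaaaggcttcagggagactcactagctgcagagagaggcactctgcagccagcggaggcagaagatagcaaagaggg
Per1, chr11:69098699-69098998, plus strand: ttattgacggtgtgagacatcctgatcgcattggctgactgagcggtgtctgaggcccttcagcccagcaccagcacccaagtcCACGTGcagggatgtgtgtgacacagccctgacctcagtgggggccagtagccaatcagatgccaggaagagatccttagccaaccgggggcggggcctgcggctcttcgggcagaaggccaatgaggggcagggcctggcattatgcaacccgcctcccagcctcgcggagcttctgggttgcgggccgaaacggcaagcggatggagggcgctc
Hlf, chr11:90390868-90391167, minus strand: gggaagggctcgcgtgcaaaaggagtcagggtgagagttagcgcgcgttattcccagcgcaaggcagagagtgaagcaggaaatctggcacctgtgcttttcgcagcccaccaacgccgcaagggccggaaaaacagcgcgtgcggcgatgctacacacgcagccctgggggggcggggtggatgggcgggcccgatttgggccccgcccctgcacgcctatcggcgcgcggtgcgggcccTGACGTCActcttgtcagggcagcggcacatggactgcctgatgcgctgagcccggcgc
Tef upstream start, chr15:81802423-81802722, plus strand: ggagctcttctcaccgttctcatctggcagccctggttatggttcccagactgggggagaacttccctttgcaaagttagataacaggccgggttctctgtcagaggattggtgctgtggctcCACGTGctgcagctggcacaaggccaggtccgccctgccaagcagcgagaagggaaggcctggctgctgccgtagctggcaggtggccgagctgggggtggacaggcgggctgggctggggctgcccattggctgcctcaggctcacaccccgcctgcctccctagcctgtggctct
Tef downstream start, chr15:81811164-81811463, plus strand: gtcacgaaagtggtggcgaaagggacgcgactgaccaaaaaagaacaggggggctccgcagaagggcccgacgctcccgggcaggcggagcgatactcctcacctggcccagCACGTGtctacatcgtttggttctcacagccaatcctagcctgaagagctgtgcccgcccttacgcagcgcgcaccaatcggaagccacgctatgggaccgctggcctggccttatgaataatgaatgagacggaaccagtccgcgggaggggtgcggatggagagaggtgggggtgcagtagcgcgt
Irs2, chr8:11008880-11009179, minus strand: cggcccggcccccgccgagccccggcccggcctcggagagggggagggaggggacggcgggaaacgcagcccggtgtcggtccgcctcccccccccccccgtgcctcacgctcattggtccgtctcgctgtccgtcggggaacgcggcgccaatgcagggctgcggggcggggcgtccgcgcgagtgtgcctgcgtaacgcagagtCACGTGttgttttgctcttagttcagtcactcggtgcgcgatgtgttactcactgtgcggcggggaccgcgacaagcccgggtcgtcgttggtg
The matches begin 60 bases before the start in Cry1, 95 in Dio2, 166 in Per1, 9 in Hlf, 127 and 138 in the windows of Tef, and 44 in Irs2. Cry1, Dio2, Per1 and Hlf rose in both fits and Irs2 rose without replicate 3. Tef, with an E-box in each window shown, fell without replicate 3 on its brighter probe set and in both fits on the other. Dusp1 and Timeless were the other genes with a match. A match describes the letters of a window and is not a site.

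The 10 largest rises with all arrays, among called genes without overlap between day and night arrays, were in Cckbr, Gpr3, Gabrr2, Shisal1, Aanat, Slc6a5, Tunar, Nefl, Tnmd and Lmo3. Absence of overlap was part of this choice and held for 36.7% of all genes. Cckbr, the cholecystokinin B receptor, read 2.01, 4.74 and 2.11 by day, with 1 of 3 arrays above background, and 7.36, 7.62 and 8.03 by night. The fitted change was 4.71 ± 0.55 (adjusted p = 0.000293), or 9.77-fold with day arrays under background raised to it. Replicate 3 was the highest night array. Gpr3, a receptor that stimulates adenylyl cyclase without a ligand, was at background on all day arrays (4.15, 3.69 and 4.19) and read 8.22, 8.41 and 6.77 by night. It was at least 12.5-fold higher at night, and at least 17.8-fold without replicate 3 (adjusted p = 0.000164 and 1.88e-06). Slc6a5, the glycine transporter GlyT2, was measured well on every array, at 8.03, 8.25 and 8.19 by day and 11.33, 11.43 and 10.33 by night, a rise of 2.87 ± 0.28 and 3.22 ± 0.21 (7.33-fold and 9.34-fold, adjusted p = 0.000135 and 1.04e-06).

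Shisal1 rose from 7.70, 7.40 and 7.68 to 10.41, 10.08 and 11.67, by 3.13 ± 0.30 and 2.65 ± 0.14 (adjusted p = 0.000135 and 3.45e-07), with replicate 3 the highest. Gabrr2, a rho subunit of GABA receptors, rose by 3.21 ± 0.55 (adjusted p = 0.00272) and Lmo3, a LIM-domain cofactor, by 2.68 ± 0.44 (adjusted p = 0.00221), each with 2 of 3 day arrays above background. Tnmd, tenomodulin, with 1 of 3 day arrays above background, rose by 2.78 ± 0.59 and 3.38 ± 0.52. Tunar, a long noncoding RNA, read 5.43, 5.86 and 5.43 by day and 9.47, 9.67 and 6.09 by night and rose by 2.83 ± 0.73 and 3.99 ± 0.34 (adjusted p = 0.022 and 4.94e-06). The Tunar call with all arrays was lost on leaving out any other control array, at adjusted p from 0.0508 to 0.0741, whereas the call without replicate 3 held in each such fit. Asphd2 rose by 3.52 ± 0.32 without replicate 3 (11.5-fold, adjusted p = 8.81e-06) and, with all arrays, by 2.55 ± 0.63 (adjusted p = 0.018), a call lost without either other night array (adjusted p = 0.0558 and 0.0616) or without day replicate 1 (adjusted p = 0.0632) or 2 (adjusted p = 0.0584).

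The 10 largest falls with all arrays, chosen in the same way, included Cxcl9, Npy6r, Cacnb2, Clca1, Gabrd and Nrxn3. Nrxn3, a presynaptic adhesion protein, read 11.81, 11.63 and 11.55 by day and 8.69, 8.40 and 8.29 by night, with all night arrays close together, replicate 3 included. The change was -3.20 ± 0.22 and -3.12 ± 0.23 (9.22-fold and 8.70-fold lower, adjusted p = 2.63e-05 and 2.59e-06), and all 3 probe sets of the gene were called lower without replicate 3. Cacnb2, a beta subunit of voltage-gated calcium channels, fell from 8.80, 9.00 and 9.10 to 5.49, 4.50 and 4.40, by 4.17 ± 0.32 (change -4.17, adjusted p = 5.06e-05). Npy6r, a receptor of the neuropeptide Y family, read 7.75, 7.83 and 8.65 by day and was at background on every night array (3.74, 4.04 and 3.53). It was at least 15.2-fold lower at night, and at least 12.8-fold without replicate 3 (adjusted p = 0.000135 and 3.62e-05). The filter asked for 3 arrays at or above the array median, so a gene high on the 3 day arrays alone could pass through them. Whether Npy6r or Clca1 passed in this way was not examined. For such a gene the fall is partly tied to the filter. Ppp2r2b, a regulatory subunit of protein phosphatase 2A, fell from 9.65, 10.18 and 10.28 to 7.47, 7.22 and 6.50, by 2.97 ± 0.30 (change -2.97, adjusted p = 0.000135).

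Csmd3, Clca1 and the transcript A330094K24Rik were among the largest falls of both fits. A330094K24Rik was even across arrays, at 7.83, 8.19 and 8.00 by day and 4.99, 5.33 and 5.03 by night, a fall of 2.89 ± 0.31 (change -2.89, adjusted p = 0.000182). Gabrd, a delta subunit of GABA-A receptors, read 7.55 and 7.27 on night replicates 1 and 2 but 4.33 on replicate 3, against 9.65 to 10.51 by day, and fell by 3.69 ± 0.74 and by 2.67 ± 0.47 without it (changes -3.69 and -2.67). Cxcl9, an interferon-induced chemokine, spread over 6.20 to 8.44 by day and was above background on 1 of 3 night arrays, replicate 3 at 4.04. Without replicate 3 it was at least 7.05-fold lower at night (adjusted p = 0.00305). With all arrays its call (change -4.45 ± 1.03, adjusted p = 0.0133) was lost without day replicate 3 (change -3.84, adjusted p = 0.0628). Adgrb3, an adhesion receptor, fell by 2.40 ± 0.52 and 3.16 ± 0.31 (changes -2.40 and -3.16), from 8.28, 8.50 and 8.67 to 4.75, 5.90 and 7.61.

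**Figure D3:**
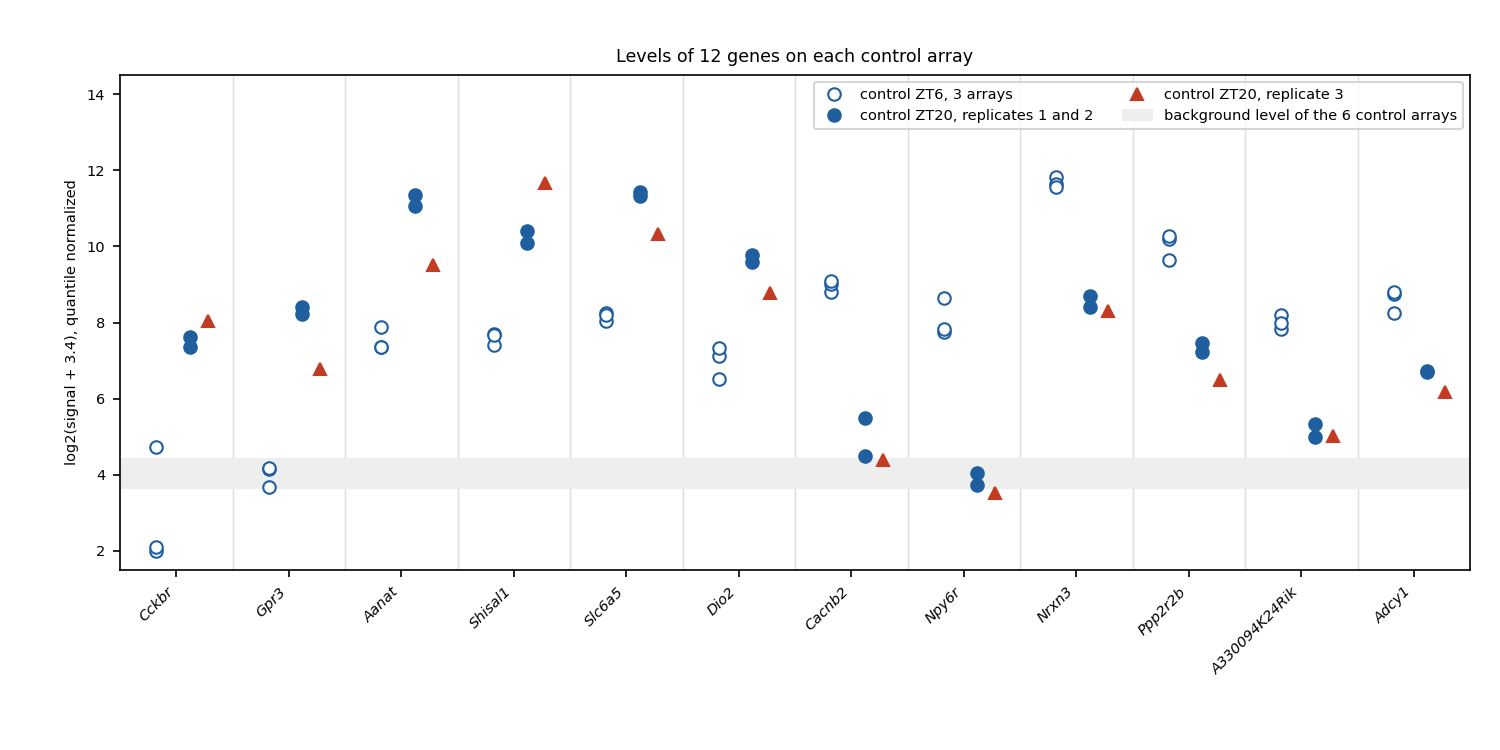
Levels of 12 genes on each control array, as log2 of signal plus 3.4, for ZT6 (open circles), ZT20 replicates 1 and 2 (filled circles) and ZT20 replicate 3 (triangles), with the background levels of the arrays (3.65 to 4.43) shaded. Day and night arrays do not overlap for any of the 12 genes, most of which were chosen for that, or for 36.7% of all genes. Replicate 3 is lowest of the night arrays for Aanat, Gpr3, Slc6a5, Dio2, Cacnb2, Npy6r, Nrxn3, Ppp2r2b and Adcy1. It is highest for Cckbr and Shisal1.

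Many phototransduction genes fell at night. Of 23 tested, 0 rose and 11 fell with all arrays, and 1 rose and 11 fell without replicate 3. The median change was -0.66 and -0.32, against -0.02 and -0.03 for all genes. Of all genes, 7.11% were higher and 9.03% lower with all arrays, and 12.0% and 13.1% without replicate 3. With trimmed mean scaling 9 and 10 fell, and 0 rose in either limma fit. The summed signal of the 31 measured members was 74230 to 76630 by day, 59790 to 64330 on night replicates 1 and 2, 44140 on replicate 3 and 40360 to 55930 on the Crx-/- arrays, and Cnga1 and Rcvrn were at background on all control arrays. Pdc, phosducin, which binds the beta and gamma subunits of transducin, had the largest change of the called members, from 9.93, 10.90 and 10.90 to 8.15, 7.40 and 8.79. The fall was 2.46 ± 0.33 and 2.80 ± 0.28, from changes of -2.46 and -2.80 (5.52-fold and 6.98-fold lower, adjusted p = 0.000672 and 1.96e-05). All night arrays were below all day arrays.

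Within the cascade, the short-wave opsin Opn1sw, arrestin (Sag), the cone transducin alpha subunit Gnat2 and the rod gamma subunit Gngt1 fell in both fits. So did Pde6b, a catalytic subunit of the rod phosphodiesterase, the channel subunit Cngb1, the guanylyl cyclase activator Guca1a, the RGS9 anchor Rgs9bp, the exchanger Slc24a2 and the phosphatase Ppef2. Pde6b was even, at 11.91, 11.95 and 11.94 by day and 11.28, 11.21 and 11.33 by night, a fall of 0.66 ± 0.10 (change -0.66, adjusted p = 0.00175). Ppef2 read 9.37, 9.31 and 9.65 by day and 7.89, 7.66 and 6.00 by night, with replicate 3 the lowest. It fell by 2.26 ± 0.42 and by 1.67 ± 0.27 without replicate 3 (changes -2.26 and -1.67). Gngt1 fell by 1.74 ± 0.54 with all arrays (change -1.74, adjusted p = 0.0471) and by 0.81 ± 0.12 without replicate 3 (change -0.81, adjusted p = 0.000319), where replicate 3, at 8.27, lay within the range of the Crx-/- ZT20 arrays, 8.11 to 8.29. With all arrays the Gngt1 call was lost without day replicate 1 (adjusted p = 0.122), 2 (adjusted p = 0.098) or 3 (adjusted p = 0.125). Gnat1, the rod transducin alpha subunit, was the 1 member that rose without replicate 3, by 0.97 ± 0.29 (adjusted p = 0.0289, and 0.287 with all arrays). The beta subunits Gnb1 and Gnb3 and Pde6g were not called.

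Of 17 tested outer segment and retinoid genes, 0 rose and 1 fell with all arrays, and 1 rose and 2 fell without replicate 3, with medians of -0.17 and -0.03. These counts do not exceed the shares over all genes, 7.11% higher and 9.03% lower, and 12.0% and 13.1% without replicate 3. Unc119, a carrier of lipid-modified transducin, fell in both fits, from 12.19, 12.24 and 12.32 to 11.03, 10.85 and 11.39, by 1.16 ± 0.12 and 1.31 ± 0.10 (changes -1.16 and -1.31, adjusted p = 0.000167 and 2.71e-06). Pcare, a photoreceptor ciliary protein outside the list, was among the largest falls, from 7.89, 8.50 and 8.60 to 5.84, 5.68 and 4.37, a change of -3.03 ± 0.44 (adjusted p = 0.00111). Whether the 2 lists differed was not tested.

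Of 21 ribbon synapse and vesicle release genes, 2 rose and 4 fell with all arrays, and 3 rose and 7 fell without replicate 3. The shares over all genes were 7.11% higher and 9.03% lower, and 12.0% and 13.1% without replicate 3. Sv2b, a synaptic vesicle glycoprotein, fell from 12.02, 12.04 and 12.20 to 10.39, 10.41 and 10.93, by 1.51 ± 0.16 and 1.69 ± 0.13 (changes -1.51 and -1.69, adjusted p = 0.000147 and 2.71e-06). Ctbp2, which encodes the ribbon protein RIBEYE, fell by 0.39 ± 0.11 and 0.53 ± 0.08 (changes -0.39 and -0.53). Rimbp2, a partner of RIM and calcium channels at release sites, rose, from 6.02, 5.42 and 5.66 to 7.74, 7.19 and 9.35, by 2.40 ± 0.40 and 1.77 ± 0.21 (adjusted p = 0.0025 and 6.35e-05), and replicate 3 lay within the range of the Crx-/- arrays, 8.87 to 9.63. Bsn, bassoon, rose by 0.88 ± 0.27 and 1.25 ± 0.18 (adjusted p = 0.041 and 0.000293), and the former call was lost without any 1 other control array (adjusted p = 0.0804 to 0.127). The other Bsn probe set was called without replicate 3 only, at 1.07 (adjusted p = 0.00194, and 0.237 with all arrays).

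Among 20 tested transcription factors of pineal and retina, 2 rose and 3 fell with all arrays, and 2 rose and 8 fell without replicate 3, with medians of -0.08 and -0.23. The shares over all genes were 7.11% higher and 9.03% lower, and 12.0% and 13.1% without replicate 3. As deposited, 0 rose by limma and 4 fell with all arrays, and 1 rose and 10 fell without replicate 3. Isl2 fell from 10.67, 10.56 and 10.68 to 9.07, 8.97 and 9.24, by 1.54 ± 0.17 (change -1.54, adjusted p = 0.000166), and the groups were far apart. Rxrg, a retinoid X receptor, fell by 0.89 ± 0.14 (change -0.89, adjusted p = 0.00186) and Neurod1, a basic helix-loop-helix factor of pinealocytes, by 0.45 ± 0.06 (change -0.45, adjusted p = 0.000743). Otx2, which acts with Crx, Neurod4, Lhx3 and Lhx9 fell without replicate 3 only, Otx2 by 0.36 ± 0.07 (change -0.36, adjusted p = 0.00206, and 0.286 with all arrays). Neurod2 rose by 1.94 ± 0.48 and 1.13 ± 0.14 (adjusted p = 0.0177 and 7.86e-05), from 7.47 to 7.88 by day to 8.91 and 8.78, while replicate 3 read 11.27. With all arrays its call was lost without day replicate 2 (adjusted p = 0.0615) or 3 (adjusted p = 0.0524).

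**Figure D4:**
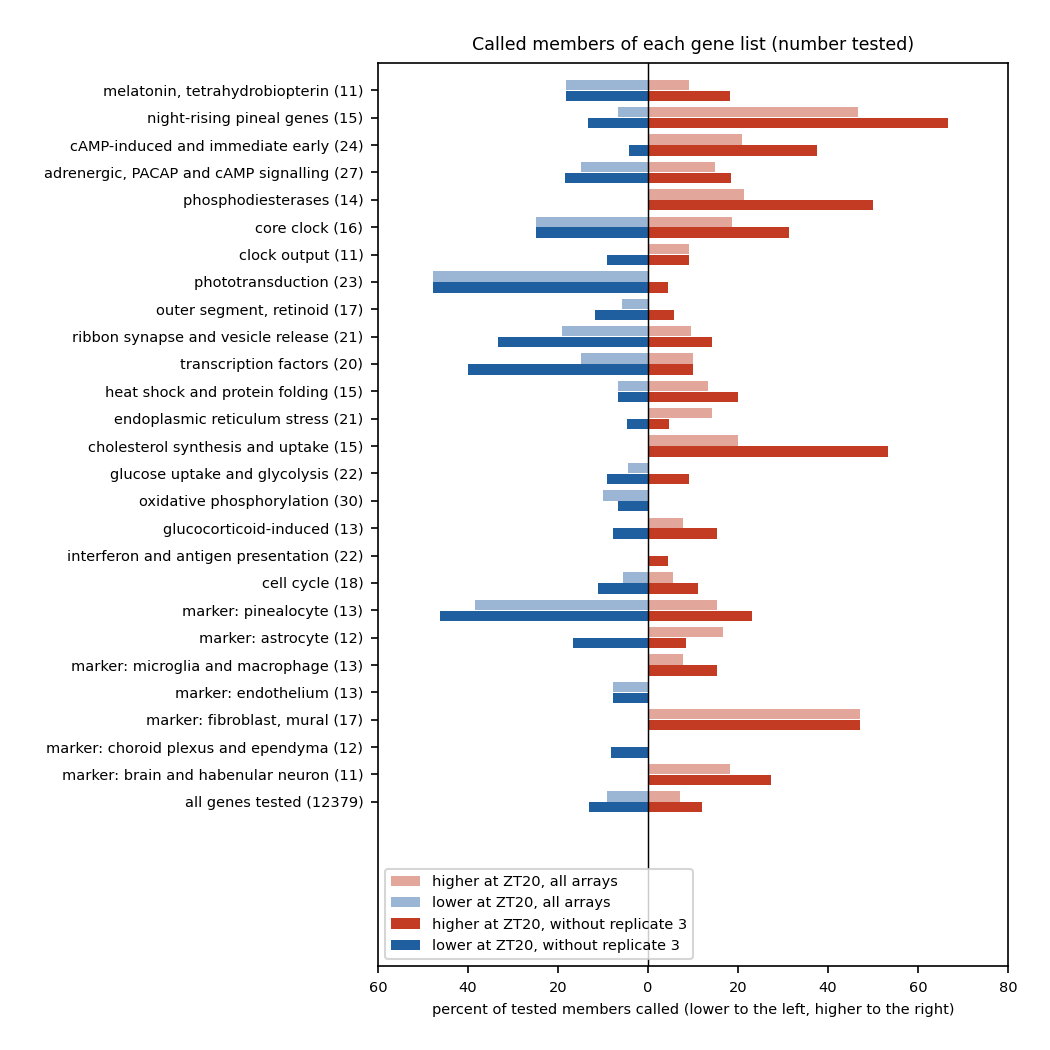
Share of the tested members of each gene list with at least 10 of them that were called lower (left) and higher (right) at ZT20 in control glands, with all arrays (pale) and without control ZT20 replicate 3 (dark), and the number tested in brackets. Over all 12379 genes the shares were 7.11% higher and 9.03% lower with all arrays, and 12.0% and 13.1% without replicate 3.

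Some cholesterol genes rose. Of 15 tested, 3 rose with all arrays, 8 rose without replicate 3 and 0 fell in either limma fit, with medians of 0.33 and 0.40. The shares over all genes were 7.11% higher and 9.03% lower, and 12.0% and 13.1% without replicate 3. On signals as deposited 0 rose with all arrays, and 0 rose and 1 fell without replicate 3, while the list's median stayed 0.34 and 0.45 above that of all genes. Mvk, mevalonate kinase, read 8.82, 8.48 and 8.45 by day and 9.70, 9.69 and 9.14 by night and rose by 0.93 ± 0.22 and 1.11 ± 0.20 (adjusted p = 0.014 and 0.00157). With all arrays its call was lost without day replicate 2 (adjusted p = 0.0532) or 3 (adjusted p = 0.0584). Mvd, the next decarboxylase, rose by 1.02 ± 0.15 without replicate 3 (adjusted p = 0.000266), from 8.00, 8.23 and 8.14 to 9.00 and 9.28, with 7.77 on replicate 3. Insig1, which retains the sterol sensor complex, rose by 0.34 ± 0.07 and 0.38 ± 0.08 in the 2 fits. Idi1, Sqle, Cyp51, Sc5d and Msmo1 of the same pathway were also called without replicate 3, by 0.40 to 0.70.

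The lists and markers that follow stand beside the shares over all genes. These were 7.11% higher and 9.03% lower with all arrays, and 12.0% and 13.1% without replicate 3. Of 22 genes of glucose uptake and glycolysis, 0 rose and 1 fell with all arrays, and 2 rose and 2 fell without replicate 3. Of 30 genes of oxidative phosphorylation, 3 fell with all arrays and 2 without replicate 3, with medians of -0.06 and -0.04. As deposited, 1 and 7 fell. With trimmed mean scaling the medians were 0.03 and 0.16, and without replicate 3, 3 rose and 2 fell. Sdhd, the membrane anchor of succinate dehydrogenase, fell by 1.08 ± 0.18 without replicate 3 (change -1.08, adjusted p = 0.00079). Its call with all arrays (change -0.80, adjusted p = 0.0346) was lost without any 1 other control array (adjusted p = 0.0695 to 0.107), and the other Sdhd probe set was not called in either fit (changes -0.25 and -0.42, adjusted p = 0.399 and 0.0932). Among 15 heat shock genes, 2 rose and 1 fell, and 3 and 1 without replicate 3. Among 21 genes of endoplasmic reticulum stress, 3 rose with all arrays, and 1 rose and 1 fell without replicate 3. As deposited, 0 heat shock and 0 endoplasmic reticulum stress genes rose by limma in either fit, and without replicate 3, 1 and 2 fell and 6 of the glucose genes fell. Xbp1, which drives the unfolded protein response, rose in both fits by 0.48 ± 0.10 and 0.54 ± 0.11 (adjusted p = 0.00932 and 0.00259). Of its 4 probe sets, 3 were called higher without replicate 3. In the limma fit of all probe sets, 1 was not called in either fit (changes 0.27 and 0.34, adjusted p = 0.169 and 0.0751). Another missed the threshold with all arrays (change 0.41, adjusted p = 0.0547). Of 22 interferon and antigen presentation genes, limma called 0 with all arrays, 0 at an unadjusted p under 0.05, and 1, Irf7, rose without replicate 3, a call lost without night replicate 1 (adjusted p = 0.111). As deposited without replicate 3, 1 of the interferon genes was higher and 12 lower. Of 18 cell cycle genes, 1 rose and 1 fell, and 2 and 2 without replicate 3, which became 3 and 6 with trimmed mean scaling and 1 and 9 on signals as deposited. Of 13 glucocorticoid-induced genes, 1 rose, and 2 rose and 1 fell without replicate 3.

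Several markers of fibroblasts, meninges and mural cells rose at night. Of 17 tested, 8 rose in each fit and 0 fell in either limma fit, and the median change was 0.66 and 0.36. The summed signal of the 18 measured markers was 41460 to 42450 by day, 48660 to 53230 on night replicates 1 and 2, 70460 on replicate 3 and 67480 to 71720 on the Crx-/- arrays, and none of the 18 was at background on all control arrays. As deposited, 3 rose with all arrays, and 3 rose and 3 fell without replicate 3, with a median of -0.01. Tagln, a smooth muscle actin-binding protein, read 9.06, 9.06 and 9.04 by day and 10.41, 10.27 and 10.62 by night and rose by 1.38 ± 0.21 and 1.29 ± 0.22 (adjusted p = 0.00132 and 0.000834). Acta2, smooth muscle actin, rose by 0.93 ± 0.17 and 1.03 ± 0.18. Col1a1, a type I collagen chain, read 12.05, 12.02 and 12.05 by day and 12.50, 12.79 and 12.83 by night, a rise of 0.67 ± 0.09 and 0.61 ± 0.09. Foxc1, a factor of meningeal fibroblasts, rose by 0.89 ± 0.20 and 0.56 ± 0.09, with 11.61 on replicate 3 against 10.63 and 10.66 on the other night arrays. The part of these cells in the other changes was not tested.

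Of 13 tested pinealocyte markers, many of them also on the lists above, 2 rose and 5 fell with all arrays, and 3 rose and 6 fell without replicate 3. Of 12 astrocyte markers, 2 rose with all arrays, and 1 rose and 2 fell without replicate 3, and Gja1, connexin 43, rose in both by 0.49 ± 0.11 and 0.32 ± 0.06. Of the 6 Gja1 probe sets, 4 were called higher without replicate 3, and 1 of the others changed by -0.10 and -0.64 without a call. Of 13 microglia markers, Tmem119 rose in both fits by 0.98 ± 0.18 and 0.85 ± 0.18, and the rest were not called with all arrays. Of 13 endothelial markers 1 fell. As deposited without replicate 3, 0 astrocyte markers were higher by limma and 5 lower. Of 12 choroid plexus and ependyma markers limma called 0 with all arrays, against 2 at an unadjusted p under 0.05, and 1, F5, fell without replicate 3. The F5 call was lost without night replicate 1 (adjusted p = 0.453) or day replicate 1 (adjusted p = 0.0747) or 2 (adjusted p = 0.0856), and its other probe set was not called (adjusted p = 0.131). As deposited without replicate 3, 9 of the 12 choroid plexus markers were lower. Of 4 erythrocyte and 3 oligodendrocyte markers limma called 0 in either fit, against 1 and 0 at an unadjusted p under 0.05. Of 11 brain and habenular neuron markers, 2 rose with all arrays, Nefl and Calb2, and 3 without replicate 3. With all arrays limma called 0 higher under trimmed mean scaling, and 0 higher and 1 lower on signals as deposited. Nefl, the light neurofilament, was at background on all day arrays and read 4.48, 4.75 and 8.67 by night, at least 3.49-fold higher with all arrays and at least 1.37-fold without replicate 3 (adjusted p = 0.0459 and 0.0293). The first call was lost without any 1 day array (adjusted p = 0.0722 to 0.154), and the second without night replicate 1 (adjusted p = 0.0936) or 2 (adjusted p = 0.142) or day replicate 2 (adjusted p = 0.0531). In the fit of all probe sets the Nefl probe set above had adjusted p = 0.0525 with all arrays, and the other one, with 2.48, 2.62 and 7.40 by night, changed by 1.35 and -0.27 without a call (adjusted p = 0.437 and 0.771). Calb2 was called with all arrays (adjusted p = 0.0409) but not without night replicate 3 (adjusted p = 0.0557) or any 1 day array (adjusted p = 0.0513 to 0.134). Nefh, the heavy neurofilament, read 10.34 to 10.71 by day, 11.48 and 11.78 on night replicates 1 and 2, and 7.84 on replicate 3.

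Many calls depended on night replicate 3. Of the genes called higher without it, replicate 3 lay beyond the day arrays in the same direction for 904 (60.8%) and in the opposite direction for 384 (25.8%). Of those called lower the numbers were 1234 (76.2%) and 208 (12.8%). The 5 genes in each direction whose change moved most were E2f8, Cpm, 3930402G23Rik, Piwil4 and Vwa7, called higher, and Chodl, Fads2b, Hoxc4, St18 and Zmat4, called lower. The Zmat4 call was lost without night replicate 2 (adjusted p = 0.32) or day replicate 1 (adjusted p = 0.12) or 2 (adjusted p = 0.124), and that of Fads2b without night replicate 1 (adjusted p = 0.0743). E2f8, a repressor of the E2F family, read 5.49, 6.17 and 6.75 by day, 10.54 and 9.87 on night replicates 1 and 2, 5.17 on replicate 3 and 4.54 to 6.77 on Crx-/- arrays. Its rise was 4.07 ± 0.46 without replicate 3 (16.8-fold, adjusted p = 4.55e-05) and 2.39 ± 1.05 with it (adjusted p = 0.139). Cpm, carboxypeptidase M, rose by 3.83 ± 0.31 without replicate 3 (14.2-fold) and Evi2a by 3.72 ± 0.21 (13.2-fold), with adjusted p = 0.22 and 0.107 when it was kept. St8sia2, a polysialyltransferase, rose by 3.29 ± 0.26 without it.

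In Hoxc4, Vwa7 and St18 the sign turned. Hoxc4 changed by 0.72 ± 1.52 with all arrays and by -1.81 ± 0.49 without replicate 3 (adjusted p = 0.0158), with 1 of the 2 remaining night arrays above background, and this call was lost without night replicate 1 (change -0.51, adjusted p = 0.118). Vwa7 read 9.90 to 10.09 by day, 11.34 and 11.67 on night replicates 1 and 2, and 6.35 on replicate 3, beside 6.43 to 7.21 on Crx-/- arrays. It changed by -0.22 ± 1.00 with all arrays and rose by 1.49 ± 0.20 without replicate 3 (adjusted p = 0.000148). St18 likewise changed by 0.42 ± 0.76 and -0.89 ± 0.17. By contrast, 70 of the 124 named genes were called in both fits. Apart from a fixed set, genes were named because a fit called them. The 2 fits share all control arrays but 1, so their agreement is partly built in. Starting from all arrays, 6 fits each left out 1 control array. Aanat, Dio2, Per1, Per2, Cry1, Nr1d1, Fosl2, Pde4b, Pde4d, Pdc, Pde6b, Nrxn3, Cacnb2 and Adcy1 were called in each of these 6. Others of the 70 were not, and Gch1, Nr1d2, Tunar and Bsn were called in only 1 of the 6. The fit without replicate 3 is itself 1 of the 6, so its calls follow from the choice of genes.

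**Figure D5:**
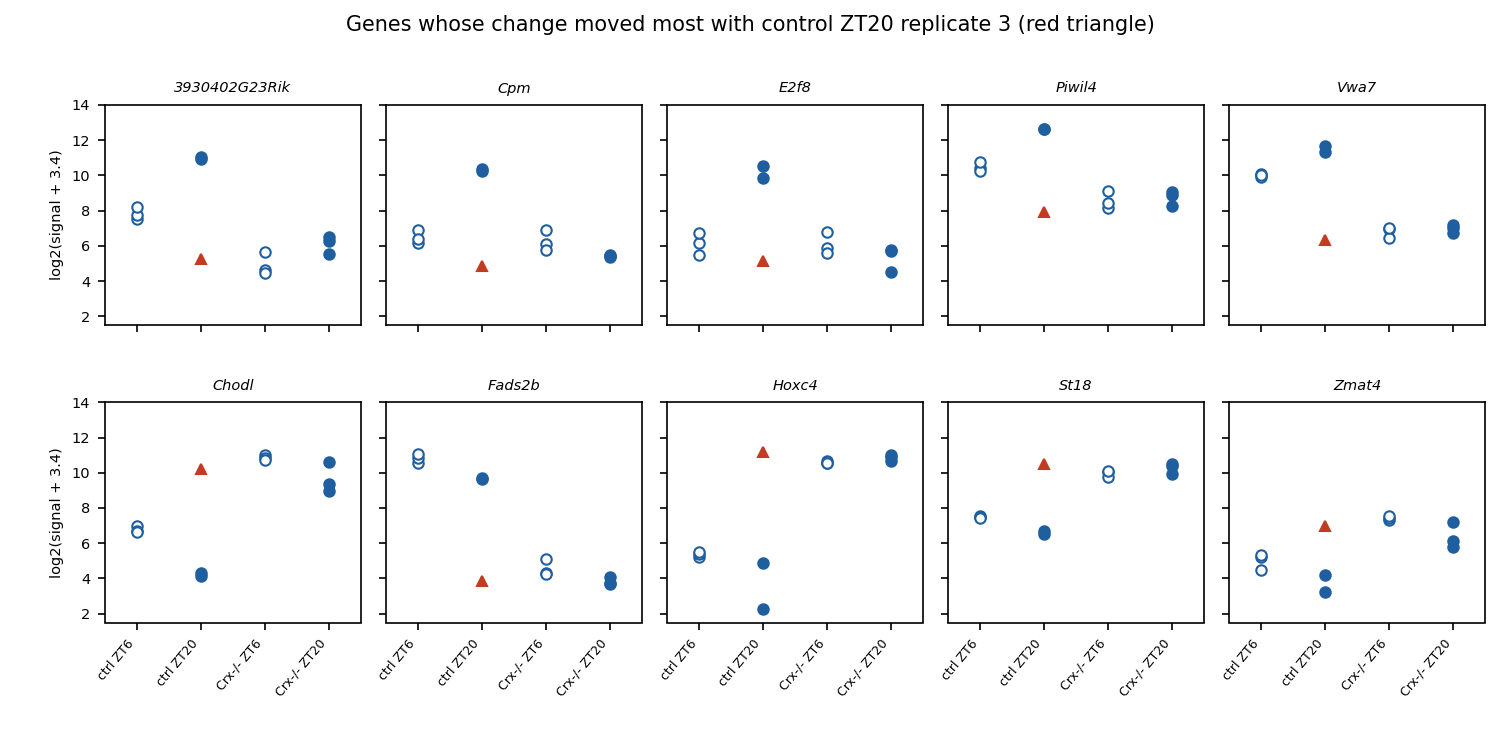
Levels, as log2 of signal plus 3.4, of the 10 genes whose day to night change moved most with control ZT20 replicate 3 (red triangle), on all 12 arrays by group, with open circles for ZT6 and filled circles for ZT20. For E2f8 replicate 3 reads 5.17 and replicates 1 and 2 read 10.54 and 9.87, and for Hoxc4 these are 11.16, 2.25 and 4.86.

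The same time contrast in Crx-/- glands used other arrays but, for each gene, the same estimate of the spread. It called 318 genes higher and 436 lower, 2.57% and 3.52% of those tested. Of these, 212 were also higher in control glands without replicate 3, which is 66.7% of the Crx-/- calls and 14.2% of the control calls, and 231 were also lower, or 53.0% and 14.3%. Opposite calls were made for 13 genes higher and 2 genes lower in control glands. Since the spread was shared, the calls of the 2 genotypes are not independent, and the overlap that this alone would give was not tested. The test of the difference between genotypes called 29 genes with all arrays, 0.234%, and 761 without replicate 3, 6.15%. It called 428 of the genes higher and 249 of those lower in control glands without replicate 3. This test contains the control change by which those genes were called, so the overlap is partly built in. Replicate 3 was left out because it resembled the Crx-/- arrays, so the number called without it is tied to that choice. Differences between genotypes in the next paragraph are from the fit without replicate 3. With all arrays no gene of that paragraph was called by this test. The differences of Dio2, Gch1 and Dbp were then 2.16, -0.58 and 0.95 (limma adjusted p = 0.0571, 0.597 and 0.0981).

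Aanat rose by 3.63 ± 0.26 in Crx-/- glands, and its difference of 0.05 ± 0.40 (95% interval -0.81 to 0.90) was not called (adjusted p = 0.963). Aanat levels in Crx-/- glands were lower at both times, 5.24 to 6.47 by day and 9.16 to 9.52 by night, and replicate 3 of the control night arrays, at 9.52, equalled the highest of these. Dio2 rose in control glands and changed by 0.23 in Crx-/- glands (adjusted p = 0.621), a difference of 2.46 ± 0.35 (adjusted p = 0.00167). On Crx-/- arrays Dio2 read 8.25, 8.21 and 9.00 by day and 8.98, 8.60 and 8.58 by night. Control arrays read 6.52 to 7.33 by day and 8.78 to 9.77 by night. Per1, with 0.03 in Crx-/- glands, differed by 1.13 ± 0.23 (adjusted p = 0.0126), a call lost without night replicate 1 (adjusted p = 0.0644) or 2 (adjusted p = 0.0502). Gch1 changed by -0.47 ± 0.11 in Crx-/- glands, a difference of -1.08 ± 0.16 (adjusted p = 0.00262). Cry1 rose by 1.63 in Crx-/- glands and its difference of -0.14 ± 0.16 (95% interval -0.49 to 0.20) was not called. Nr1d1 fell there by 2.83 (change -2.83), a difference of 0.99 (adjusted p = 0.0428) whose call was lost without night replicate 1 (adjusted p = 0.231) or any 1 control day array (adjusted p = 0.0642 to 0.106). Dbp, not called in control glands, fell in Crx-/- glands by 1.15 (change -1.15, adjusted p = 0.000179), a difference of 1.06 ± 0.20 (adjusted p = 0.00992). The Dbp difference was lost without night replicate 1 (adjusted p = 0.0735). Phototransduction showed 12 of 23 genes lower in Crx-/- glands by limma, against 11 lower in control glands, with Pdc at -2.20 and Pde6b at -0.94 there. The fibroblast, meninges and mural list, with 8 of 17 genes higher in control glands, had 0 genes called in Crx-/- glands by limma, against 4 at an unadjusted p under 0.05, and a median of -0.05 there. The 4 tested sex markers had a median change of 1.48 in Crx-/- glands, with 0 called by limma and 0 at an unadjusted p under 0.05. In control glands this median was -0.31 with all arrays and -0.19 without replicate 3. Whether the sexes were mixed alike at both times was not tested. The Crx probe set read 12.56 to 13.06 on Crx-/- arrays. Whether it lies inside the deletion is not given in the sources used here, so it checks nothing about the genotype.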

How the data were processed

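RNA from pineal glands was measured on 12 Affymetrix mouse 430_2 arrays. The deposited values are probe set intensity signals on a linear scale from GCOS, per the submitters' processing notes, whose version is not given in the sources used here, and the deposited lists of Crx-/- effects were not used. Leaving out 64 control features among 45101 probe sets, the remaining 45037 were quantile normalized over 12 arrays, 3.4 (the 10th percentile of signals) was added, and log2 was taken. Kept were 24273 probe sets at or above the array median on at least 3 arrays. A probe set can thus pass through 1 group alone, and a change toward or from background in such a gene is partly tied to this filter. By the platform annotation 34945 probe sets had 1 gene symbol, 932 several and 9160 none, and the probe set of highest mean stood for each of 12379 genes. Probe sets of named genes were also fitted one by one, with p adjusted over all probe sets, which is why a probe set can have a slightly different p there. Signals of 27 Bacillus control features set the background, at the highest on each array. Where a group was at background on all its arrays, the fold is the brighter mean over the dimmer mean with arrays under background raised to it, written as at least that fold.

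Group means were fitted with limma 3.58.1 (R 4.3.3, lmFit, eBayes with trend, two-sided), Benjamini-Hochberg adjusted over all genes and called at an adjusted p under 0.05. Groups came from the titles. The script was tested on simulated data. The members and gene lists were chosen with earlier results of these data known. Named were the 10 largest non-overlapping called changes per direction in each fit, up to 4 called members per list by lowest p, the 5 changes per direction that moved most with control ZT20 replicate 3, and a fixed set of pineal and clock genes. Other list members were named after their values were seen. The labels state no pairing of samples by replicate number. The deviations of same-numbered control arrays correlated at -0.0349, -0.0761 and -0.0904, and those of other numbers at -0.0535 to 0.0856. Deviations from a mean of 3 arrays are tied to each other, so these values cannot tell whether the numbers pair the samples. Alternatives were scaling, pseudocount, filter, choice of probe set, arrays fitted, trend, array weights, a replicate block and leaving out each array. No pair of arrays was identical. The number of arrays limits the precision. The titles call the replicates biological, but the labels do not give the animals behind each, and p-values measure the spread between these samples.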

Additional observations from a re-analysis of the deposited data

Results flagged for a closer look

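Each gene below had a day to night change that differed between control and Crx-/- glands by the limma interaction test, and each value is the control change minus the Crx-/- change on the log2 scale. No explanation was tested for any of them. Most were named for their control change, which this test contains. With all arrays these were Cckbr at 4.82 (adjusted p = 0.0485), Col1a1 at 0.74 (adjusted p = 0.0492) and Col1a2 at 0.70 (adjusted p = 0.0485). All 3 calls were lost without control ZT6 replicate 1 (adjusted p = 0.136 for each) or replicate 3 (adjusted p = 0.113, 0.113 and 0.105) or control ZT20 replicate 2 (adjusted p = 0.0865, 0.0891 and 0.0865). Those of Col1a1 and Col1a2 were also lost without control ZT6 replicate 2 (adjusted p = 0.122 for each), and that of Cckbr without control ZT20 replicate 1 (adjusted p = 0.0603).

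Without control ZT20 replicate 3, the differences above 0 included Cckbr at 4.64, E2f8 at 4.80, Cpm at 4.67, Evi2a at 4.66, Tnmd at 4.40, St8sia2 at 3.48, Tunar at 3.46 and Gpr3 at 3.41. Lmo3 at 2.78, Gabrr2 at 2.70, Dio2 at 2.46, Asphd2 at 2.37, Irs2 at 1.91, Per1 at 1.13, Dbp at 1.06, Nr1d1 at 0.99 and Shisal1 at 0.91 followed. Atf3 at 2.56, Piwil4 at 1.98, 3930402G23Rik at 1.91, Nefh at 1.56, Gngt1 at 1.39, Bsn at 1.38, Vwa7 at 1.33, Rimbp2 at 1.22, Mvd at 0.95, Neurod2 at 0.93, Col1a1 at 0.68, Col1a2 at 0.62, Pcna at 0.61 and Gja1 at 0.32 were also above 0. Among the named genes, those below 0 were Npy6r at -3.14, Slc15a1 at -2.49, Adgrb3 at -2.45, Nrxn3 at -1.62, Sdhd at -1.21, St18 at -1.19, Gch1 at -1.08 and Arntl at -0.70. Adjusted p ran from 3.17e-06 for Evi2a to 0.0428 for Nr1d1. In Lmo3, Gabrr2, Cckbr and Tnmd the Crx-/- arrays read 5.60 to 8.85 at both times, and the control day arrays 2.01 to 5.37. Leaving out control ZT20 replicate 1 ended the calls of Arntl (adjusted p = 0.0681), Dbp (adjusted p = 0.0735), Gabrr2 (adjusted p = 0.0956), Irs2 (adjusted p = 0.0755), Lmo3 (adjusted p = 0.0971), Npy6r (adjusted p = 0.0573), Nr1d1 (adjusted p = 0.231), Per1 (adjusted p = 0.0644) and Shisal1 (adjusted p = 0.116). Leaving out control ZT20 replicate 2 ended those of Arntl (adjusted p = 0.0773), Gabrr2 (adjusted p = 0.143), Lmo3 (adjusted p = 0.0674) and Per1 (adjusted p = 0.0502), and any 1 control day array that of Nr1d1 (adjusted p = 0.0642 to 0.106). Of the others, Neurod2 (adjusted p = 0.0755), Rimbp2 (adjusted p = 0.141) and Sdhd (adjusted p = 0.0855) lost their calls without control ZT20 replicate 1, and Mvd (adjusted p = 0.0705) and Vwa7 (adjusted p = 0.0651) without replicate 2. Those of 3930402G23Rik and Gja1 were lost without either of these arrays or without control ZT6 replicate 1 or 2 (adjusted p = 0.0654 to 0.122 and 0.0625 to 0.131).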

How the results depend on the processing

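With all arrays, 880 genes were higher and 1118 lower. Signals as deposited gave 72 and 463, each probe set on its own 1357 higher, only the control arrays 337 and 558, array weights 2641 and 3131, and a filter at the 75th percentile in 6 arrays 691 lower. Leaving out 1 control array gave 411 to 1488 higher and 556 to 1620 lower. Without control ZT20 replicate 3, the 1488 higher and 1620 lower genes became 232 and 3809 on signals as deposited, 935 and 1041 under the stricter filter and 2462 higher with each probe set on its own, and leaving out 1 more array gave 785 to 1233 and 805 to 1213. Normalizing without the array, an alternative chosen after seeing the data, gave 1485 and 1620.

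The difference between genotypes with all arrays (15 and 14 genes) became 9 higher with trimmed mean scaling, 2 and 2 on signals as deposited, 945 and 817 with array weights, and 0 to 480 and 0 to 281 on leaving out 1 control array. Without replicate 3 (480 and 281) it was 40 higher on signals as deposited, 766 and 593 with array weights, and 150 to 342 and 74 to 183 on leaving out 1 more array.

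Changes whose sign turned with array weights were Hk2 at 0.81, Mt1 at 0.32, Nefh at 1.18, Sox9 at -0.33, St18 at -0.88 (-1.25 for the difference between genotypes), Tph1 at 0.15 and Vwa7 at 1.51. Leaving out 1 control array moved Hk2 between -1.15 and 0.88, Hoxc4 between -1.81 and 2.65, Mt1 between -0.23 and 0.39, Nefh between -0.85 and 1.11, Sox9 between -0.44 and 0.38, St18 between -0.89 and 1.11, Tph1 between -0.13 and 0.16 and Vwa7 between -1.17 and 1.49, and moved the difference between genotypes of St18 between -1.19 and 0.81 and of Vwa7 between -1.33 and 1.33. Hspb1 without replicate 3 was -0.01 on signals as deposited. The causes were not tested.

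With the replicate number as a block, 807 genes were higher and 1053 lower with all arrays, and 1306 and 1479 without replicate 3. Under the block the difference between genotypes gave 1 and 0 genes with all arrays (limma), and 361 and 204 without replicate 3. Whether the numbers pair the samples is not given in the labels.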
